A study of Mus musculus with 34 samples.

Results

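The Reg family lectins are a group of small secreted proteins, and 5 of their genes were described here in the distal colon of mice with recurrent colitis: Reg1, Reg3a, Reg3b, Reg3g and Reg4. All probes that the platform annotation gives to these symbols were taken, which gave 5 of the 16593 genes named on the array and 6 of its 25697 probes, with 2 for Reg3b and 1 for each other gene. RNA was measured in 34 female BALB/c mice on single-colour bead arrays, 1 array per mouse. The mice, 8 weeks old at the start, were sensitised on the skin with 2,4,6-trinitrobenzene sulfonic acid (TNBS) and then received TNBS in ethanol by the rectum on days 7, 14 and 21, in rising doses. The colon was taken from 5 mice on each of days 9, 16 and 23, which is 2 days after an instillation, and from 5 mice on each of days 14, 21 and 28, which is 7 days after one. The comparison group was 4 healthy mice of the same strain, to which the labels give no day. The study describes a sampling before the first rectal dose but does not tie it to these mice or say whether they were sensitised or received ethanol, so effects of TNBS, its vehicle and the sensitisation cannot be told apart. The tissue was whole distal colon, so more cells of a type and more RNA per cell cannot be told apart either.

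Reg proteins carry a C-type lectin fold and are released into the lumen of the gut and the ducts of the pancreas. Reg3b and Reg3g bind bacteria and are induced in the intestinal epithelium by interleukin-22 through STAT3, whereas Reg4 is made by secretory cells of the intestine. Reg1 and Reg3a are known above all from the acinar cells of the pancreas, where several Reg genes are induced when the gland is injured. Reg proteins have also been described as growth signals, with EXTL3 proposed as a receptor.

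Except for Reg4, which lies on chromosome 3, the members are neighbours on mouse chromosome 6, in an uninterrupted run of 6 protein-coding genes in the order Reg3b, Reg3d, Reg3a, Reg2, Reg1 and Reg3g. With all instillations pooled, Reg3b and Reg3g were higher 2 than 7 days after one. Reg1 was high in a few arrays only, and Reg4 followed another course. The promoters of Reg3b and Reg3g are shown beside those of Reg1 and Reg4. Each is the 250 bases before the RefSeq transcription start, 5′ to 3′ on the strand of the gene, from build GRCm38.p6. Reg3b is chr6:78370635-78370884 (plus strand), Reg3g is chr6:78468875-78469124 (minus strand), Reg1 is chr6:78425733-78425982 (plus strand) and Reg4 is chr3:98221906-98222155 (plus strand). Capitals mark matches on either strand to TTCNNNGAA, the palindrome bound by STAT factors, to CACCTG, an E-box, or to TGANTCA, the AP-1 element.
Reg3b: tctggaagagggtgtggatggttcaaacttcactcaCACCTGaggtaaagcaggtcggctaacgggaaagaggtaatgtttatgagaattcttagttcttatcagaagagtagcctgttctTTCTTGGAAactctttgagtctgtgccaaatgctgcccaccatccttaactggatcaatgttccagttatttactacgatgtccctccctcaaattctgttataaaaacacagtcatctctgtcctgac
Reg3g: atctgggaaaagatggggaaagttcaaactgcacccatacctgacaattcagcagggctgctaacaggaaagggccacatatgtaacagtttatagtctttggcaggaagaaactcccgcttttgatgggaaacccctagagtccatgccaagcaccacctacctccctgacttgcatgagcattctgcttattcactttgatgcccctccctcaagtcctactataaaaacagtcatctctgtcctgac
Reg1: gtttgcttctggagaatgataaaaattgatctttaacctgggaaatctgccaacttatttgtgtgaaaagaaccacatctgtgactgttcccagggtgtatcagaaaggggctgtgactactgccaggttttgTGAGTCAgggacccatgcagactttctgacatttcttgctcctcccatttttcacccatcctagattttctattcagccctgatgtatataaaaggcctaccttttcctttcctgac
Reg4: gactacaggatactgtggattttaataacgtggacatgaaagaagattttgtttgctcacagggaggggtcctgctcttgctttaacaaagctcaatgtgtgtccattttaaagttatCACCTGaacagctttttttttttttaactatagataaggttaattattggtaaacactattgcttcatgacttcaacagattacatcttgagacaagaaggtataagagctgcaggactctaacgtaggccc

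The windows of Reg3b and Reg3g were identical at 173 of 250 bases (69.2%) in a global alignment, whereas every other pair among the 5 members shared between 51.2% and 57.2%. TTCNNNGAA occurred 1 time in the Reg3b window, from 129 to 121 bases before the start, and in none of the other 4 members. Of the family genes outside the members, Reg3d also held it 1 time, from 238 to 230 bases before the start, and Reg2 did not. It was present in 7.02% of all 32851 mouse promoter windows of this length. CACCTG occurred 1 time each in the windows of Reg3a, Reg3b and Reg4, and outside the members 1 time in Reg2 and 2 times in Reg3d, against 17.2% of all windows. TGANTCA occurred 1 time in Reg1, against 6.75% of all windows. Such matches describe letters in a short window and say nothing of whether a factor was bound in these mice.

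Before the Reg genes were compared, the arrays were read for cells other than those of the colon. Pan-epithelial and goblet cell markers were nearly all present throughout, since 9 of 9 and 11 of 12 of them were above background in every array. In the healthy mice, 4 to 5 of 11 Paneth cell markers and 8 of 10 enteroendocrine cell markers were above background. For absorptive colonocyte markers it was 9 to 10 of 10. In 4 arrays, however, the mean of 16 pancreatic acinar markers lay more than 3 log2 units above the mean of the healthy mice: by 8.22 in day 21 mouse 2, 6.30 in day 21 mouse 3, 5.08 in day 23 mouse 1 and 9.22 in day 23 mouse 3. Of these 16 markers, 3 to 7 were above background in each of the other 30 arrays, and Prss2 (a trypsinogen) was at the floor in all 30. In another 5 arrays it was skeletal muscle markers that exceeded the healthy mean by more than 3 log2 units, namely in day 9 mice 2, 3 and 5, day 14 mouse 5 and day 21 mouse 5. No array was in both sets. The main results that involve day 21 or day 23 are therefore also given without the 4 arrays with pancreatic markers, an alternative added after the data had been seen.

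Levels are log2 intensities with a floor of 5 on the linear scale, which is 2.32 in log2. The background of an array was the 95th percentile over probes of the Olfr (odorant), vomeronasal and Taar (trace amine-associated) receptor genes. It lay between 4.48 and 4.93 in log2. Changes come from 1 limma fit over all 7 groups and 21110 probes, with p-values adjusted by the Benjamini-Hochberg method over all probes of a comparison, and a change is called at an adjusted p under 0.05. The labels give each mouse as a separate sample, and the 6 comparisons with healthy mice share those 4 controls.

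Reg3b (pancreatitis-associated protein, a lectin that binds Gram-negative and Gram-positive bacteria) rose on days 9 and 23, and on days 14, 21 and 28 it was above background in 2 of 15 mice. In the 4 healthy mice its brighter probe read 2.32, 3.67, 5.94 and 2.32. On day 9 it read 9.65, 10.03, 10.52, 10.50 and 5.72, and on day 14 it read 2.92, 2.32, 2.32, 2.32 and 4.89. Thus all 5 mice of day 9 exceeded all 5 of day 14, and 4 of the 5 exceeded the highest healthy mouse. On day 16 the values were 5.46, 7.11, 7.68, 5.89 and 4.36, and on day 21 they were 2.32, 3.97, 9.47, 2.32 and 4.02, so that these groups overlapped. The high value on day 21 belongs to mouse 3, 1 of the 4 with pancreatic markers. On day 23 Reg3b read 14.41, 6.57, 13.40, 6.42 and 7.54, and on day 28 it read 2.32, 2.32, 2.32, 3.98 and 2.32. Each day 23 mouse was above every healthy mouse and every day 28 mouse, and the values above 13 were those of mice 1 and 3, which carried pancreatic markers.

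**Figure D1:**
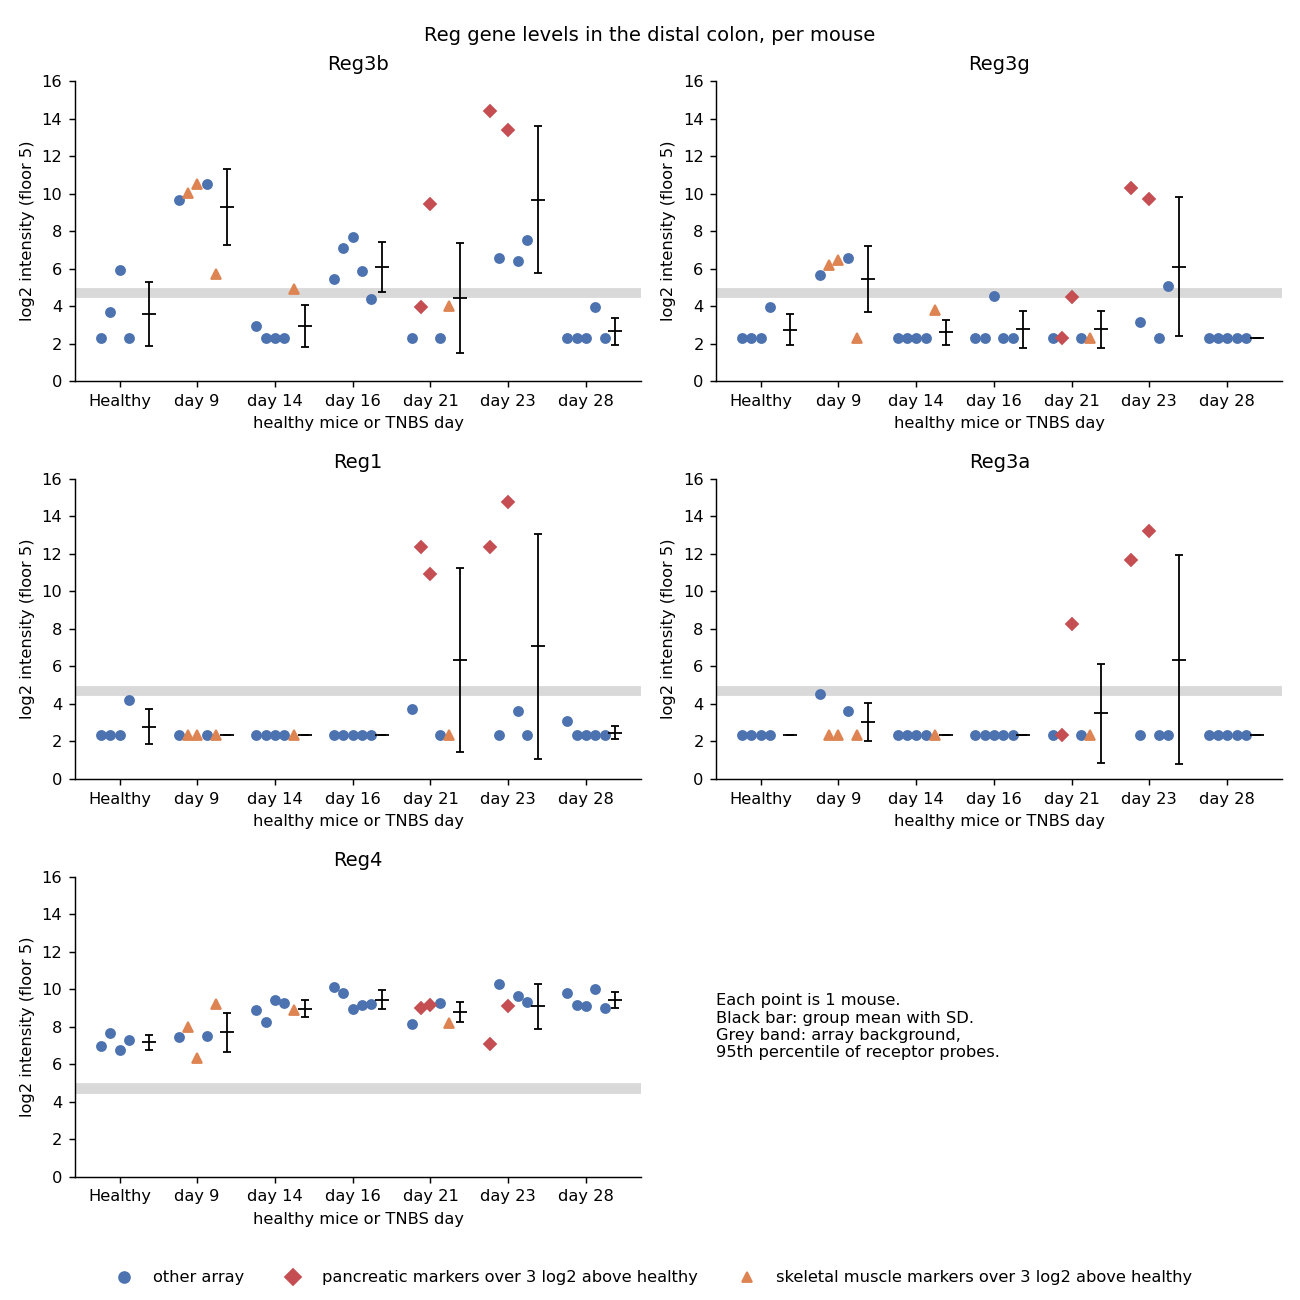
Level of each Reg gene (log2 intensity, floor 5) in each of 34 mice, by group, with the group mean and SD in black; the grey band is the background of the arrays. All 5 mice of days 9 and 23 are above background for Reg3b and 4 and 3 of 5 for Reg3g, the high values of Reg1 and Reg3a are red diamonds (arrays with pancreatic markers), and Reg4 is above background in all 34 mice.

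Reg3b was called on day 9, where it was 5.72 log2 units above the healthy mice (SE 1.45, adjusted p = 0.034), and it was the only 1 of the 5 genes called, against 2% of all probes in that comparison. On day 23 it was 6.11 above (SE 1.45, adjusted p = 0.0085), and here 2 of the 5 genes were called, Reg3b and Reg4, against 7.01% of all probes. The intermediate level of day 16 was 2.54 above healthy (SE 1.45, adjusted p = 0.39), which was not called. Between 2 and 7 days after the same instillation it fell by 6.33 from day 9 to day 14 (SE 1.37, adjusted p = 0.018) and by 7.01 from day 23 to day 28 (SE 1.37, adjusted p = 0.0046). It was the only member called in either comparison, against 0.734% and 1.46% of all probes. The lower arm of the later one lay wholly below background, so that Reg3b was at least 30.3-fold higher on day 23 than on day 28, and at least 4.27-fold higher without the 4 arrays with pancreatic markers. After the middle instillation the change of 1.68 (SE 1.37, adjusted p = 0.63) was not called, nor was it without the 4 arrays (3.21, SE 0.95, adjusted p = 0.091). No other member was called there, against 1.21% of all probes. Reg1 had an unadjusted p under 0.05, as had 3240 of the 21110 probes. With all instillations pooled, Reg3b was 5.01 higher 2 days than 7 days after an instillation (SE 0.79, adjusted p = 1.5e-04), and 2 of 5 members were called, against 5.68% of all probes.

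Without the 4 arrays with pancreatic markers, 3 mice remained on each of days 21 and 23. Reg3b was then 3.28 above healthy on day 23 (SE 0.99, adjusted p = 0.047), with 3 of 3 mice above the highest healthy one, in place of 6.11. It was 4.19 above day 28 (SE 0.95, adjusted p = 0.026), in place of 7.01. The pooled difference of 2 against 7 days was 4.58 (SE 0.52, adjusted p = 4.8e-06). The day 9 change stayed at 5.72 with a smaller error (SE 0.87, adjusted p = 4.7e-04). In the order of group means Reg3b ran from day 23 (9.67 ± 3.91, SD, n = 5) over day 9 (9.29 ± 2.02, SD, n = 5), day 16 (6.10 ± 1.32, SD, n = 5), day 21 (4.42 ± 2.94, SD, n = 5), healthy (3.56 ± 1.71, SD, n = 4) and day 14 (2.96 ± 1.11, SD, n = 5) to day 28 (2.65 ± 0.74, SD, n = 5). No neighbours in that order passed the test in the fit, and without the 4 arrays the mean of day 23 was 6.84 ± 0.61 (SD, n = 3), which is below day 9.

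**Figure D2:**
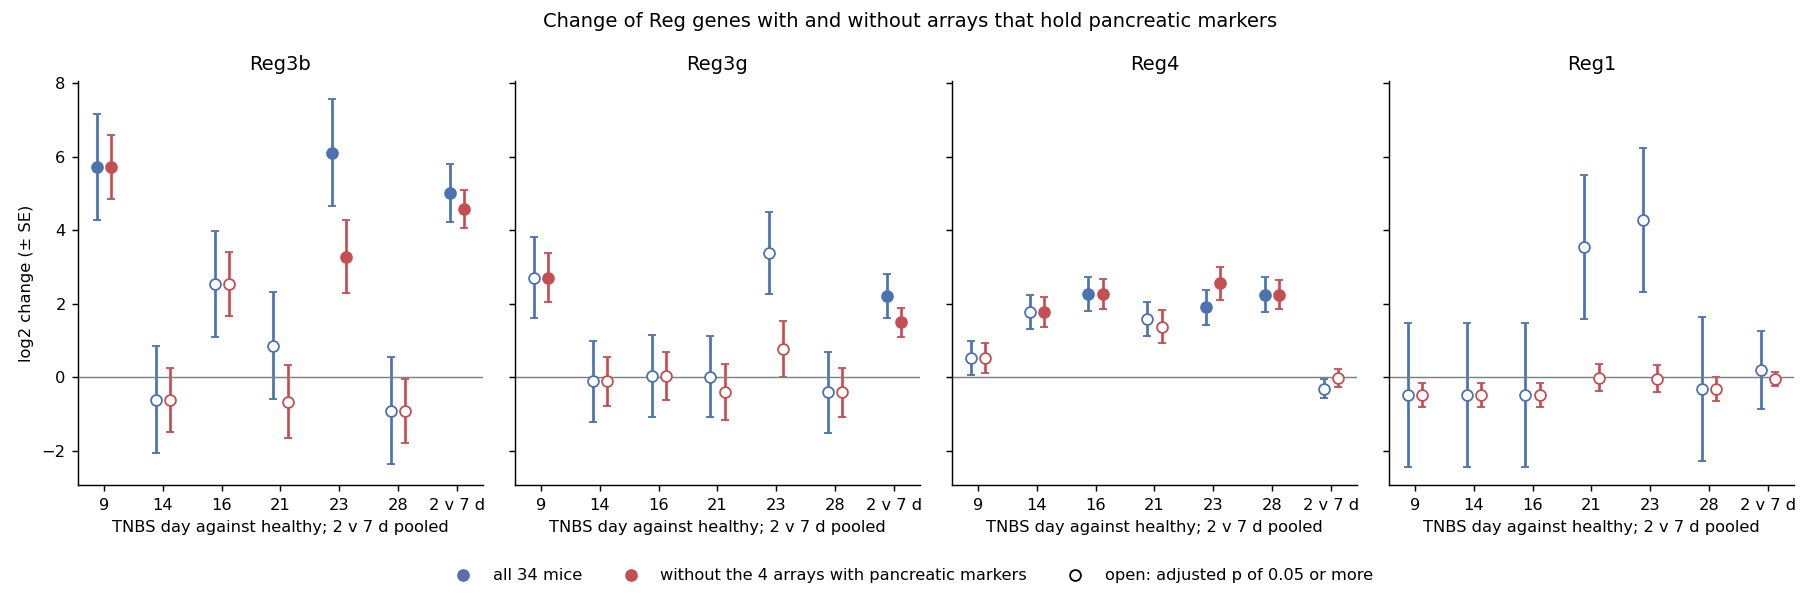
Log2 change with SE of 4 Reg genes on each TNBS day against healthy mice and, at the right of each panel, of all mice 2 days against all mice 7 days after an instillation; blue is all 34 mice, red leaves out the 4 arrays with pancreatic markers, filled points are called. The day 23 change of Reg3b shrinks from 6.11 to 3.28 and that of Reg1 from 4.28 to -0.04, while that of Reg4 goes from 1.90 to 2.56.

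The second probe of Reg3b was above background in 2 arrays only, day 23 mice 1 and 3, at 8.57 and 7.07. It was not called in any comparison, and its day 23 change was 2.20 (SE 0.80, adjusted p = 0.098). On day 9 the brighter probe was above background in 5 of 5 mice and the second in 0 of 5. In day 23 mouse 1 the brighter probe read 14.41 where the second read 8.57. With so much weaker a signal, the second probe cannot decide whether the probes disagreed on day 9. With the mean of both probes in place of the brighter one, the day 9 calls of Reg3b, against healthy and against day 14, were lost.

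Reg3g (a lectin directed mainly at Gram-positive bacteria) gave a signal closer to background. In the healthy mice it read 2.32, 2.32, 2.32 and 3.97, none of them above background. On day 9 it read 5.66, 6.19, 6.46, 6.55 and 2.32, and on day 23 it read 10.28, 3.17, 9.72, 2.32 and 5.06. So 4 of 5 mice on day 9 and 3 of 5 on day 23 were above background, and both values over 9 were from arrays with pancreatic markers. In the 5 mice of day 16 and the 15 mice of days 14, 21 and 28, no array was above background, with a highest value of 4.54.

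With all instillations pooled, Reg3g was 2.21 higher 2 days than 7 days after one (SE 0.60, adjusted p = 0.026), and 1.49 higher without the 4 arrays (SE 0.40, adjusted p = 0.026). Without them its means were 5.44 on day 9, 2.77 on day 16 and 3.52 on day 23. Those of days 16 and 23 lay below background, with 1 of 3 mice above it on day 23. All 15 mice of the later time were below background, so that the pooled ratio over all arrays was bounded only as at least 1.05-fold. On single days it was not called: the change was 2.71 on day 9 (SE 1.11, adjusted p = 0.22, at least 1.7-fold) and 3.38 on day 23 (SE 1.11, adjusted p = 0.061, at least 2.7-fold). Without the 4 arrays the day 9 change of 2.71 was called (SE 0.66, adjusted p = 0.025) and that of day 23 was 0.78 (SE 0.76, adjusted p = 0.65).

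Whether Reg3b and Reg3g varied together among mice of the same group was examined next. Since the 4 arrays with pancreatic markers form a cluster of their own, the correlation of deviations from the group means was taken over the other 30 mice. Pearson's r was 0.64 (permutation p = 0.013 within groups, adjusted p = 0.13 over 10 pairs of members) and Spearman's rho was 0.40 (permutation p = 0.043, adjusted p = 0.21), so the relation did not pass the correction. Without the 2 mice farthest from the median of Reg3b, r was 0.56. Day 9 mouse 5 was the lowest of its group for both genes, at 5.72 for Reg3b and 2.32 for Reg3g. Over the same 30 mice Reg4 ran opposite to Reg3g with r = -0.55 and rho = -0.46 (permutation p = 0.036 and 0.021, adjusted p = 0.18 and 0.21), and r was -0.28 without the 2 mice farthest from the median.

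On day 9, where Reg3b and Reg3g were highest among arrays without pancreatic markers, markers of other tissues were raised as well. The mean of 10 small intestinal enterocyte markers ran from 4.90 to 6.44 in the mice of day 9, from 4.51 to 4.80 in the healthy mice and from 4.38 to 4.77 on day 23, and 8 of the 10 were above background in at least 1 day 9 mouse. Of 9 tested, 3 rose and 1 fell. Apoa1, an apolipoprotein of small intestinal enterocytes, was at least 4.98-fold higher on day 9 (adjusted p = 6.0e-05), and Fabp6, the ileal bile acid binding protein, rose by 1.69 (SE 0.38, adjusted p = 0.015). Sis (sucrase-isomaltase) was at least 1.15-fold higher (adjusted p = 0.034), whereas Apoc3 and Fabp2 were never above background. Per mouse Apoa1 read 8.47, 7.90, 5.26, 8.83 and 4.51. Mouse 3, with 1 of the lower values, had the highest Reg3b of the group, and mouse 5 was lowest for both. The mean of 11 skeletal muscle markers on day 9 ran from 3.86 to 11.17, with mouse 5 the highest, and that of 12 squamous epithelium markers from 4.04 to 8.18, against 3.86 to 4.42 and 3.42 to 3.86 in the healthy mice. Their part in the day 9 result was not tested beyond leaving out the muscle arrays. That left mice 1 and 4 on day 9, where Reg3b was at 9.65 and 10.50, and its call against healthy was lost with all other arrays kept but held when the 4 arrays with pancreatic markers were left out too (6.51, SE 0.86, adjusted p = 4.6e-04). On day 23 no mouse exceeded the healthy range of the small intestinal mean. Reg3b was above every healthy mouse in all 5, of which mice 1 and 3 carried pancreatic markers. Whether small intestinal transcripts and Reg3b were related on either day was not tested.

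Reg1 (lithostathine, a main secretory product of acinar cells) was above background in exactly the 4 arrays with pancreatic markers. It read 12.36 and 10.93 in day 21 mice 2 and 3, and 12.36 and 14.77 in day 23 mice 1 and 3. In all other 30 mice it was at or below 4.22, the value of healthy mouse 4. The fitted changes of 3.54 on day 21 (SE 1.95, adjusted p = 0.51, at least 3.15-fold) and 4.28 on day 23 (SE 1.95, adjusted p = 0.20, at least 5.29-fold) were not called, and without the 4 arrays they were -0.01 (SE 0.37, adjusted p = 1) and -0.04 (SE 0.37, adjusted p = 0.99).

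Reg3a, the mouse gene next to Reg3d in the cluster, was above background in 3 of the same 4 arrays. It read 8.24 in day 21 mouse 3, 11.67 in day 23 mouse 1 and 13.21 in day 23 mouse 3, but was at the floor in day 21 mouse 2, whose acinar markers exceeded the healthy mean by 8.22. The only other values over the floor were 4.56 and 3.64, in day 9 mice 1 and 4, both below background. Its day 23 change of 4.05 (SE 1.56, adjusted p = 0.12, at least 3.23-fold) was not called, and without the 4 arrays the gene no longer passed the filter on low values. Of the family genes outside the members, Reg2 read 6.42 and 8.84 in day 21 mice 2 and 3 and 11.98 and 13.56 in day 23 mice 1 and 3, and Reg3d was above background in 3 of these arrays, with a day 23 change of 3.23 that was called (SE 1.00, adjusted p = 0.046, at least 1.84-fold). With these arrays left out neither Reg2 nor Reg3d passed the filter, so that call rests on day 23 mice 1 and 3.

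**Figure D3:**
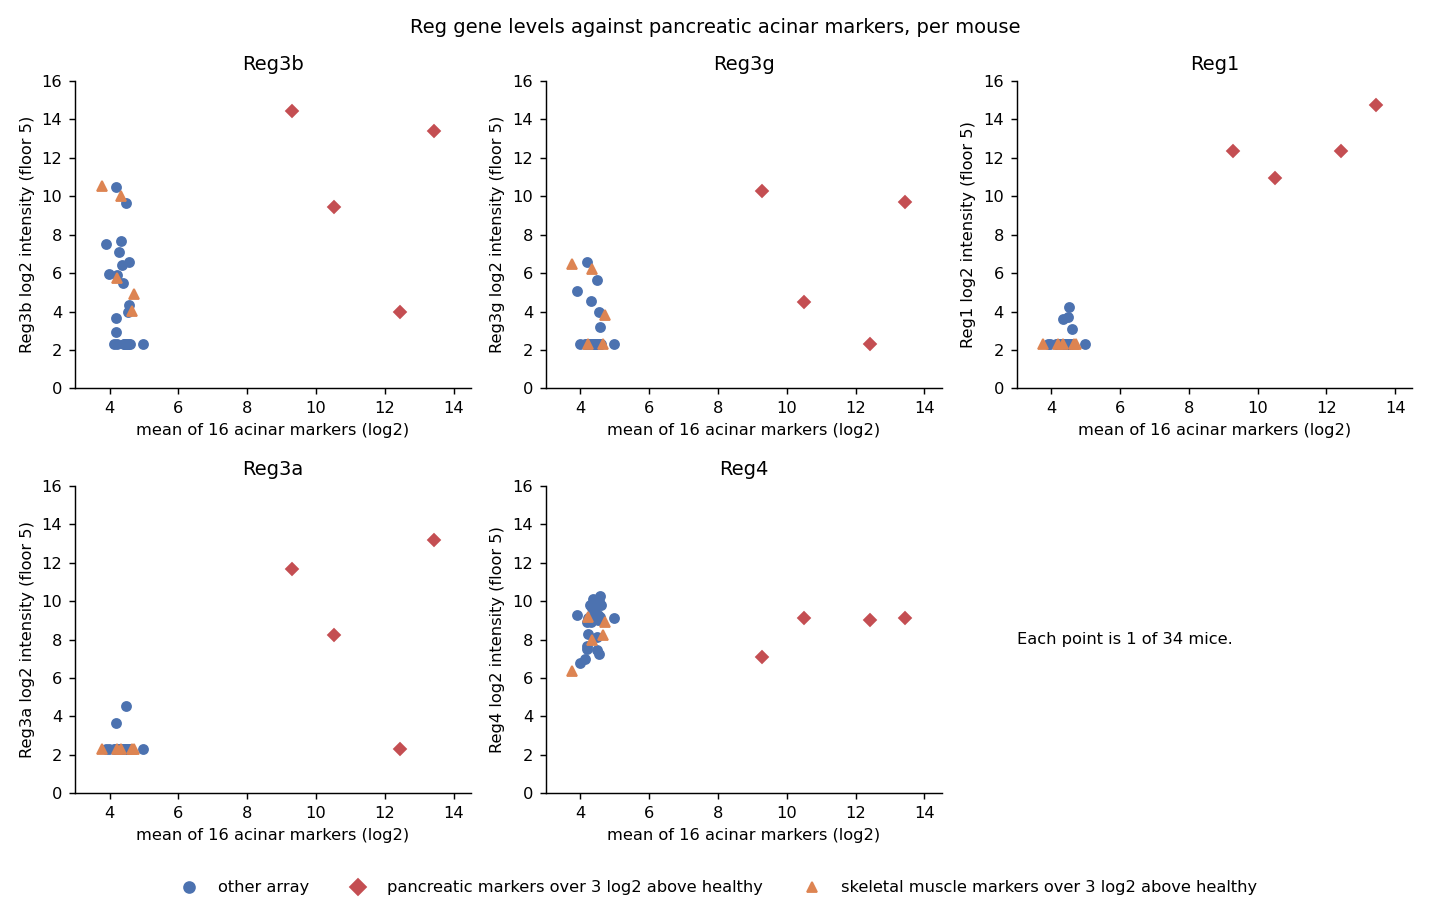
Level of each Reg gene (y axis, log2 intensity, floor 5) against the mean of 16 pancreatic acinar markers (x axis, log2) in each of 34 mice. The 4 red diamonds are the arrays with pancreatic markers: all 4 are high for Reg1, 3 of them for Reg3a and Reg3b and 2 for Reg3g, while Reg4 lies within the range of the other mice.

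The 4 arrays were not alike for Reg3b and Reg3g. Day 21 mouse 2 had the second highest acinar mean, 12.43, and Reg1 at 12.36, but Reg3b at 3.97 and Reg3g at 2.32, as low as in day 21 mice without such markers. Day 23 mouse 1 had the lowest acinar mean of the 4, 9.29, and the highest Reg3b and Reg3g of all mice, 14.41 and 10.28. How much of the Reg3b and Reg3g signal in these arrays came with the acinar transcripts was not tested.

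Reg4, the member on chromosome 3, is a product of goblet-like and other secretory cells of the gut, and it was above background in all 34 mice. In the healthy mice it read 6.98, 7.68, 6.77 and 7.27, and on day 9 it read 7.46, 7.97, 6.35, 7.52 and 9.19. These groups overlapped, with 2 of the 5 day 9 mice above the highest healthy one. From day 14 on it was higher: 8.91, 8.28, 9.44, 9.28 and 8.90 on day 14 and 10.13, 9.80, 8.92, 9.15 and 9.20 on day 16. On day 21 it read 8.16, 9.02, 9.14, 9.29 and 8.22, on day 23 it read 7.09, 10.27, 9.10, 9.64 and 9.30, and on day 28 it read 9.79, 9.18, 9.13, 10.01 and 9.01. Every mouse of days 14, 16, 21 and 28 was above every healthy mouse, and so were 4 of 5 on day 23, the exception being mouse 1.

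The increase of Reg4 was called on day 16 (2.27, SE 0.47, adjusted p = 0.006, 4.82-fold), on day 23 (1.90, SE 0.47, adjusted p = 0.012, 3.73-fold) and on day 28 (2.25, SE 0.47, adjusted p = 0.012, 4.76-fold). It was the only member called on days 16 and 28, against 3.92% and 1.26% of all probes. No member was called on day 14 or 21, against 0.459% and 0.701% of all probes. Yet Reg4 was higher in 5 of 5 mice on both days and had an unadjusted p under 0.05 on each. So had 2251 and 2460 of the 21110 probes. The change of Reg4 was 1.78 on day 14 (SE 0.47, adjusted p = 0.095) and 1.59 on day 21 (SE 0.47, adjusted p = 0.11). The day 9 change was 0.52 (SE 0.47, 95% interval -0.45 to 1.49, adjusted p = 0.67). Without the 4 arrays, Reg4 was called on day 14 (1.78, SE 0.40, adjusted p = 0.036) and its day 23 change was 2.56 (SE 0.45, adjusted p = 0.0011).

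Unlike Reg3b, Reg4 was not called between 2 and 7 days after an instillation. The pooled difference was -0.31 (SE 0.26, 95% interval -0.84 to 0.21, adjusted p = 0.58), and the single ones were -1.26 for day 9 against day 14 (adjusted p = 0.21), 0.67 for day 16 against day 21 (adjusted p = 0.52) and -0.35 for day 23 against day 28 (adjusted p = 0.84). Without the 4 arrays the pooled difference was -0.02 (SE 0.24, adjusted p = 0.98) and that of day 23 against day 28 was 0.31 (SE 0.43, adjusted p = 0.87), a direction opposite to that with all mice. The group means ran from day 16 (9.44 ± 0.50, SD, n = 5) and day 28 (9.43 ± 0.44, SD, n = 5) over day 23 (9.08 ± 1.20, SD, n = 5), day 14 (8.96 ± 0.45, SD, n = 5), day 21 (8.77 ± 0.53, SD, n = 5) and day 9 (7.70 ± 1.03, SD, n = 5) to healthy (7.18 ± 0.39, SD, n = 4), and the values of each neighbouring pair in this order overlapped.

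With all mice, no member differed past the test between the first and a later instillation at the same delay. The dose rose with each instillation, so repetition and dose cannot be told apart. No member was called by limma for day 16 against day 9 (0.0995% of all probes) or day 23 against day 9 (0.194%). Nor was any for day 21 against day 14 (0%) or day 28 against day 14 (0.00947%). In that order 3, 3, 1 and 0 members had an unadjusted p under 0.05. So had 1852, 2038, 1456 and 1680 of the 21110 probes. Members with such a p included Reg1, which was 4.76 higher on day 23 than on day 9 (SE 1.84, adjusted p = 0.38) with its high values in the arrays with pancreatic markers. Others were Reg4, which was 1.75 higher on day 16 than on day 9 (SE 0.45, adjusted p = 0.17), and Reg3b, which was 3.19 lower there (SE 1.37, adjusted p = 0.49). Day 23 against day 9 gave 0.38 for Reg3b (SE 1.37, adjusted p = 0.97), a direction that turned to -2.45 without the 4 arrays (SE 0.95, adjusted p = 0.29), and 1.38 for Reg4 (SE 0.45, adjusted p = 0.26), which became 2.04 and was called (SE 0.43, adjusted p = 0.025). The difference between instillations in the change from 2 to 7 days was called for no member by limma, against 0.0379%, 0.0805% and 0.00474% of all probes for the first against the second, the first against the third and the second against the third, with 2, 0 and 4 members at an unadjusted p under 0.05. Along days 9 to 28 no member had a called trend, against 0.175% of all probes. An unadjusted p under 0.05 was found for 2 members and for 1720 of the 21110 probes. Reg3b fell by 1.11 per week (SE 0.44, adjusted p = 0.47), and without the 4 arrays the fall was called (-1.61, SE 0.28, adjusted p = 0.0031), while Reg4 gained 0.46 per week (SE 0.14, adjusted p = 0.28).

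Outside the family, the genes whose levels over all 34 mice were most like Reg3b were Lrg1 (leucine-rich alpha-2-glycoprotein, r = 0.90), Hp (haptoglobin, r = 0.87) and Saa3 (serum amyloid A3, r = 0.87), all genes of the acute phase. Over the 30 mice without pancreatic markers these r were 0.86, 0.85 and 0.82. For Reg3g they were Lrg1 (r = 0.82), Lcn2 (lipocalin 2, which binds bacterial siderophores, r = 0.80) and Ncmap (r = 0.79), with 0.71, 0.67 and 0.61 over the 30 mice. For Reg4 they were the goblet cell gene Spink4 (r = 0.90), Ang4 (angiogenin 4, an antimicrobial ribonuclease, r = 0.87) and Itln1 (intelectin 1, a lectin of goblet and Paneth cells, r = 0.86), with 0.92, 0.85 and 0.87 over the 30 mice. Reg1 was nearest to the acinar genes Prss2, Try4 and Cuzd1 (r = 0.98 for each), and Reg3a to Reg2 (r = 0.94), 1810009J06Rik and Reg3d (r = 0.93 for both). Those of Reg1 and Reg3a lay between -0.07 and 0.29 over the 30 mice, except Prss2 and Try4, which were at the floor in all 30. These correlations share the groups and the arrays, and they describe likeness only.

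The brightest probe of Hp, which was not the Hp probe nearest to Reg3b, was not above background in any healthy mouse. Its level was at least 29.2-fold higher on day 9 (adjusted p = 3.9e-04) and at least 8.52-fold higher on day 16 (adjusted p = 0.0054). For day 23 the bound was at least 20.2-fold (adjusted p = 2.9e-04), or 10.7-fold without the 4 arrays. Lrg1 rose by 2.46 on day 9 (SE 0.58, adjusted p = 0.022) and by 2.52 on day 23 (SE 0.58, adjusted p = 0.0066), and by 1.43 on day 23 without the 4 arrays (SE 0.33, adjusted p = 0.0083), where it was also called on day 16 (1.17, SE 0.29, adjusted p = 0.017). Saa3 was called on no day with all mice, with 3.44 on day 9 (SE 1.09, adjusted p = 0.095) and 2.96 on day 23 (SE 1.09, adjusted p = 0.099). These genes were chosen for their likeness to Reg3b, so their values describe that choice.

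**Figure D4:**
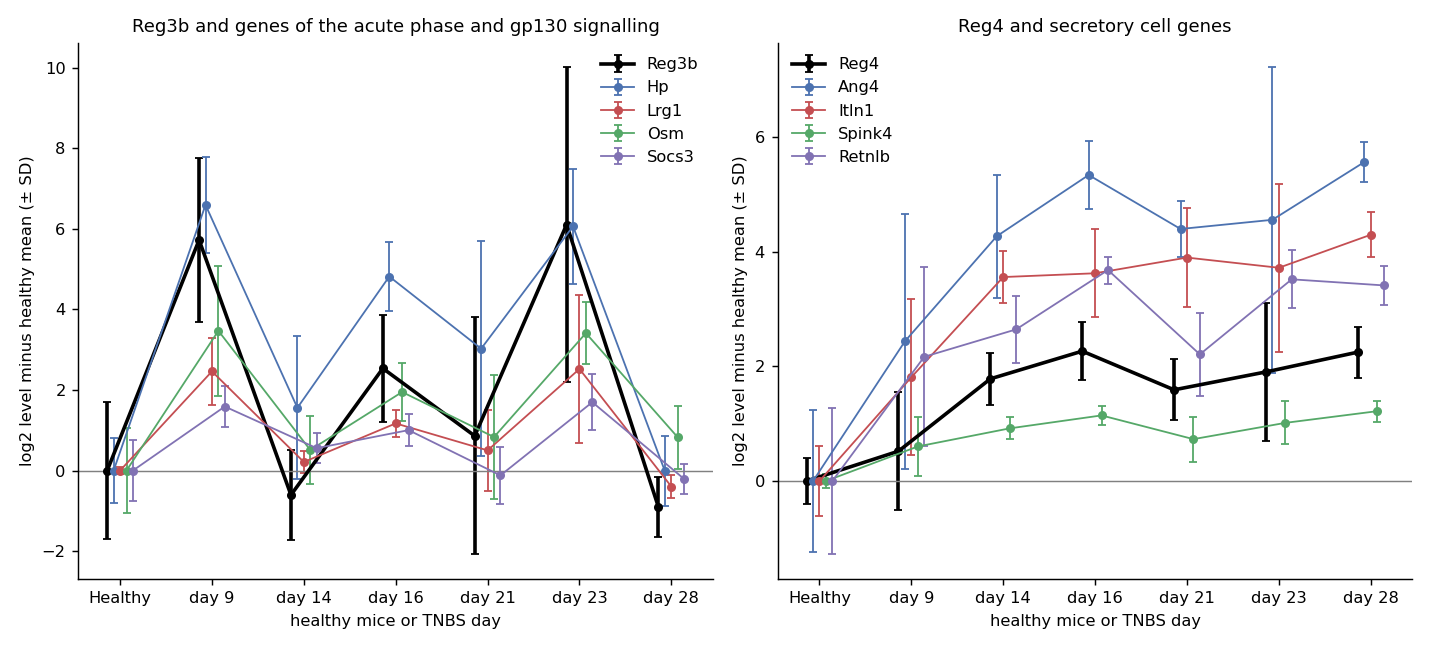
Group means with SD, as log2 level minus the mean of the healthy mice, for Reg3b with Hp, Lrg1, Osm and Socs3 (left) and for Reg4 with Ang4, Itln1, Spink4 and Retnlb (right). On the left, the mean of Hp lies 6.59 above the healthy mean on day 9 and 6.06 on day 23 (all healthy mice are below background for Hp and Osm); on the right, the mean of Ang4 lies 4.27 above on day 14 and 5.57 on day 28.

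Of 26 genes listed for interleukin-22, interleukin-6 and STAT3 signalling, the pathway known to induce Reg3b and Reg3g, 21 were tested. The list also holds Il1b, Tnf, Il17a and Il17ra, which belong to other cytokine pathways. Il1b is in the counts of days 9 and 23. On day 9, 4 rose and 0 fell, with a median change of 0.33 against -0.02 over all 14010 genes tested. The shares of all probes called on days 9, 14, 16, 21, 23 and 28, given above, were 2%, 0.459%, 3.92%, 0.701%, 7.01% and 1.26% in either direction, and they stand beside all list counts here. Osm (oncostatin M) was at least 4.06-fold higher (adjusted p = 0.0089), and the others rose, Il1b by 3.07 (SE 0.68, adjusted p = 0.015), Socs3, a STAT3 target and feedback inhibitor, by 1.59 (SE 0.37, adjusted p = 0.018) and Osmr, the oncostatin M receptor, by 0.77 (SE 0.17, adjusted p = 0.015). On day 23, 5 rose and 0 fell: Osm (at least 3.9-fold), Il11 by 3.55, Il1b by 2.32, Socs3 by 1.70 and Osmr by 1.03, and without the 4 arrays 4 rose, all but Il11. None was called on days 14, 16, 21 or 28, apart from Osmr on day 16 without the 4 arrays. Il22 itself was not above background in any array, with 1 value over the floor, 3.06 in day 23 mouse 5, and Stat3 changed by 0.33 on day 9 (SE 0.15, adjusted p = 0.30) and 0.44 on day 23 (SE 0.15, adjusted p = 0.079). Between 2 and 7 days after an instillation 6 of 21 were higher and 0 lower, among them Socs3 by 1.35 (SE 0.20, adjusted p = 5.5e-05). The proposed receptor genes Extl3 and Egfr were called on no day.

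Among 27 listed genes of epithelial antimicrobial and host defence, 23 were tested, and 6, 4, 5, 3, 9 and 4 of them rose on days 9, 14, 16, 21, 23 and 28, with 0 lower on any day. Without the 4 arrays these numbers were 9, 4, 8, 3, 7 and 4, with 2 lower on day 23 and 1 on day 28. Among those that peaked with Reg3b, the calprotectin genes S100a9 and S100a8, which neutrophils also express, rose by 7.40 (SE 1.38, adjusted p = 0.0034) and 6.64 (SE 1.56, adjusted p = 0.021) on day 9. The mean of 11 neutrophil markers ran from 5.10 to 6.96 on day 9 and from 4.53 to 6.59 on day 23, against 3.30 to 4.32 in the healthy mice, and their part in these changes was not tested. Others were called on each day from day 14 to day 28: Ang4 rose by 4.27 on day 14 and 5.57 on day 28, Itln1 by 3.56 and 4.30, and Mptx1, a mucosal pentraxin, by 3.33 and 3.85. Mptx1 was the only listed defence gene lower 2 days than 7 days after an instillation (-1.38, SE 0.25, adjusted p = 8.1e-04), where 8 of 23 were higher.

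Of 11 goblet cell markers tested, 1, 2, 3, 0, 2 and 2 rose on days 9, 14, 16, 21, 23 and 28 and 0 fell, and without the 4 arrays 3 rose on day 23 with the other days as before. Retnlb (resistin-like beta) rose on 5 of the 6 days, by up to 3.68 on day 16 (SE 0.56, adjusted p = 3.7e-04), and Spink4 on 4, by up to 1.22 on day 28 (SE 0.21, adjusted p = 0.0021). Of 10 Paneth cell markers tested, of which Ang4 and Itln1 are also in the defence list, 2, 2, 3, 3, 3 and 5 rose on these days, and 3, 2, 3, 2, 3 and 5 without the 4 arrays. The defensin genes Defa20 and Defa26 were at the floor in all 4 healthy mice. They were at least 10.9-fold (adjusted p = 0.0033) and 5.53-fold (adjusted p = 9.2e-04) higher on day 9. By day 28 the bounds were 21.1-fold (adjusted p = 7.0e-04) and 2.16-fold (adjusted p = 0.019) higher, whereas Lyz1 was called on no day. Of the same list, Mmp7 and Defa21 were above background in no mouse of day 9 or day 28. Nor were Defa22 and Habp2 on day 28. The study's own stains did not establish that Paneth cells were present in the affected colon. Of 10 enteroendocrine cell markers, 0, 0, 1, 0, 2 and 0 rose and 0, 0, 1, 0, 1 and 5 fell on these days, and 4 were higher and 0 lower 2 days than 7 days after an instillation. With those arrays left out 9 were tested, with 0 higher and 2 lower on day 23. Chga (chromogranin A) was among those that fell on day 28, by 0.85 (SE 0.20, adjusted p = 0.026).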

How the data were processed

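RNA of the distal colon of 34 mice was hybridised to Illumina mouse bead arrays, 1 per mouse, and groups and mouse numbers were taken from the labels. The log2 values the authors deposited were used; GenomeStudio is named in the submitters' processing notes, and per the methods the signals were background-subtracted, quantile normalised in GeneSpring, filtered, floored at 5 and tested with limma. The deposited table holds all 25697 probes and values below that floor, so filter and floor were applied here. Its log2 scale was inferred from the values, and array medians were 4.77 to 4.78. A further 68 columns of unnormalised signals and detection p-values have names that no source pairs with a mouse and were not used, so chips could not be examined as batches.

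Probes above 5 in at least 4 arrays were kept (21110, all 6 Reg probes among them). Where a gene had several probes the brightest was named, except that likeness to a member was searched over every tested probe. A fit with limma 3.58.1 in R 4.3.3 gave the comparisons, with 27 residual degrees of freedom; the fit was tested on simulated data. Arrays had 48.5% to 52.8% of probes above background, and replicates correlated at 0.927 to 0.951. Precision is limited by 4 or 5 mice per group. Within-group correlations used 100000 permutations. Promoter sequences are RefSeq's (GRCm38.p6), aligned with Biopython 1.88. All member probes were named, with the 3 non-member genes most like each member, and up to 4 examples per list past the test, chosen by size of change, beside a few genes named individually. The members and lists were chosen with earlier results of these data known. The alternatives were the floor, filter, fit, weights, adjustment, mouse number, single mice, arrays with other tissues' markers and the mean of probes.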

Additional observations from a re-analysis of the deposited data

Results flagged for a closer look

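In 14 of 30 combinations of member probe and group with any spread, 1 mouse stood farther from the others than a Dixon test at the 95% level allows; chance gives about 1 in 20. Most of these are single values above the floor in a group otherwise at the floor, and the floor itself narrows the rest of the group. For Reg3b the mice were day 9 mouse 5 (lowest, 5.72), day 14 mouse 5 (highest, 4.89), day 21 mouse 3 (highest, 9.47) and day 28 mouse 4 (highest, 3.98). The second probe of Reg3b had day 9 mouse 1 (4.01) and day 14 mouse 1 (3.84), both below background. For Reg3g they were healthy mouse 4 (3.97), day 14 mouse 5 (3.81), day 16 mouse 3 (4.54) and day 21 mouse 3 (4.50) as highest, none above background, and day 9 mouse 5 as lowest, at the floor of 2.32. Reg1 had healthy mouse 4 (4.22) and day 28 mouse 1 (3.09), below background, and Reg3a had day 21 mouse 3 (8.24). Day 21 mouse 3 carried pancreatic markers, and day 9 mouse 5 and day 14 mouse 5 carried skeletal muscle markers. Reg4 had no such mouse.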

How the results depend on the processing

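No called change of a member turned direction under any alternative. Of the 9 called gene changes, Reg4 on day 16 and Reg3b 2 against 7 days after an instillation passed the test under all alternatives run, Reg3g in the latter was lost only with a floor of 20, Reg4 on day 28 was lost only without healthy mouse 3, and the day 23 calls of Reg3b and Reg4 and that of Reg3b for day 23 against day 28 were lost only in pairwise fits. Reg3b on day 9 was lost with a floor of 20, in pairwise fits, without the muscle arrays, with the mean of probes and without any of 6 single mice (healthy mice 1, 2 and 4, day 9 mice 1, 3 and 4), where its change ran from 5.31 to 6.61 over single mice left out; against day 14 it was lost under those same 4 settings and without day 9 mouse 3.

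As counts of the 5 members, day 9 against healthy gave 1, and 0 under those 4 settings, 2 without the pancreatic arrays and 2 without pancreatic or muscle arrays, and 0 to 1 over single mice left out. Day 9 against day 14 gave 1, with the same 0, 2 and 2, and 0 to 1. Day 14 gave 0, and 1 with array weights, with adjustment over all 6 days, without the pancreatic arrays and without pancreatic or muscle arrays, and 0 to 1 over single mice. Day 16 gave 1, and 2 without pancreatic or muscle arrays. Day 21 gave 0, and 1 with array weights, with 0 to 1 over single mice. Day 23 gave 2, 0 in pairwise fits, and 2 to 4 over single mice, the 4 without day 23 mouse 2. Day 28 gave 1, with 0 to 1 over single mice. Day 23 against day 28 gave 1, 2 with the filter on background, 0 in pairwise fits, and 1 to 2 over single mice. The pooled 2 against 7 days gave 2, and 1 with a floor of 20. Day 16 against day 9 gave 0, 2 without pancreatic or muscle arrays, and 0 to 1 over single mice. Day 23 against day 9 gave 0, 1 without the pancreatic arrays and 1 without pancreatic or muscle arrays, and 0 to 1 over single mice. The trend gave 0, 1 without the pancreatic arrays, 3 without pancreatic or muscle arrays, and 0 to 1 over single mice. In these last 3, and on days 14 and 21, the single mouse whose absence added Reg4 was day 23 mouse 1, and for day 16 against day 9 also day 9 mouse 5. The cause of these differences was not tested. Settings that leave out mice also have fewer samples.

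The correlation of Reg3b and Reg3g was 0.84 over all 34 arrays (permutation, adjusted p = 0.0018) and 0.64 without the pancreatic arrays (adjusted p = 0.13). Same-numbered mice of different groups did not deviate together (mean r 0.008 over 99 pairs, against -0.002 over 396 other pairs), so the numbers were not taken as pairs; with the mouse number as a replicate block, the pooled change of Reg3b was 5.01 (adjusted p = 9.0e-05) and the count of called members changed only on day 23, from 2 to 3. Over all probes, pairwise fits called fewer on day 9 (30 against 423), day 14 (30 against 97), day 21 (40 against 148), day 23 (402 against 1479), day 9 against day 14 (22 against 155) and day 23 against day 28 (120 against 308), the muscle arrays' absence left 143 on day 9 and 42 for day 9 against day 14, the pancreatic arrays' absence left 53 on day 21, and array weights gave 1299 on day 16 (against 827), 295 on day 21 and 485 on day 28 (against 265). Signals near background limit Reg3g, Reg1, Reg3a and the second probe of Reg3b: a background at the 99th percentile changed 2 calls of presence.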
